A study of Mus musculus with 6 samples.

Results

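A set of 9 genes known to rise in thymocytes after β-selection was followed in *Cd3e*-deficient thymi: the coreceptor chains *Cd4*, *Cd8a* and *Cd8b1*, the surface regulators *Cd5*, *Cd6* and *Cd28*, the lipid antigen-presenting molecule *Cd1d1*, the transcriptional repressor *Bcl6* and the phosphoprotein gene *Arpp21*. Members were the probe sets whose platform annotation names exactly 1 of these genes. They came to 16 of the 22690 probe sets on the array and to 9 of the 12393 genes with such a probe set. Expression was measured on 6 Affymetrix mouse arrays of total RNA from whole-thymus thymocytes, unsorted, of untreated C57BL6 mice at 3 weeks of age. All 6 arrays are labelled *CD3e*-/-, so the controls carry the deletion too. By label, 3 arrays (SCLtg LMO1tg) carry in addition an *SCL* (*Tal1*) transgene under the *Sil* promoter and an *LMO1* transgene under the *Lck* promoter. The 3 arrays labelled control carry neither by label. The labels do not say whether separate animals were used for arrays of the same group. The p-values therefore measure only the spread between these arrays, part of which may be technical.

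Developing T cells of the thymus begin as double negative cells, which lack both coreceptors. A cell that has made a T cell receptor β chain pairs it with pre-Tα and CD3 chains and signals through this pre-TCR, which is β-selection. It then divides, becomes double positive for CD4 and CD8, and, after its receptor has been tested on self ligands, keeps a single coreceptor. CD3ε is required for pre-TCR signalling, and thymocytes without it stop at the double negative stage. SCL and LMO1 are oncogenic in this lineage. SCL binds and inhibits E proteins, the factors that occupy E-box motifs at many thymocyte genes. The study reports that this inhibition was not sufficient for leukemia, and that self-renewal required direct interaction of SCL with LMO1. The comparison asked whether genes of the later stages were measurable in these arrested thymi and whether they differed with the transgenes.

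The labels were checked first. *Lmo1* read 5.11, 5.07 and 4.86 in the arrays labelled SCLtg LMO1tg and 6.64, 6.84 and 6.77 in the arrays labelled control, on the RMA log2 scale used for every level here. This difference of -1.74 goes against the labels, although whether the probe set detects the transgene was not determined, and directions below are given by label only. By label *Lyl1* and *Hhex*, genes of the double negative stage given further on, also lie opposite to the direction that the study describes for them under SCL and LMO1, and so does *Ptcra* to the inhibition by SCL that the study describes. *Slc4a1*, which the study counts among the down-regulated genes, was higher by label at both probe sets tested (1.07 and 1.90, limma adjusted p = 0.499 and 0.299). At another, too low to test, it differed by -0.24. Whether labels were exchanged was not tested, and an exchange would turn the sign of every difference below. *Tal1* read 4.55, 4.63 and 4.71 against 4.35, 4.27 and 4.43, all among the low values of the array, and *Cd3e* lay between 8.41 and 8.72 on all 6 arrays, with a probe set whose place relative to the deletion was not determined. The hybridization controls, bacterial transcripts spiked into each sample, separated the arrays into a low set (SCLtg LMO1tg replicates 2 and 3 and control replicate 1, means 8.64 to 9.19) and a high set (SCLtg LMO1tg replicate 1 and control replicates 2 and 3, means 10.24 to 10.45). *Xist*, which female cells express, read 6.15 in control replicate 2 and 10.08 to 11.16 in the other arrays. The Y-linked *Eif2s3y* read 5.43, 6.23 and 5.74 in SCLtg LMO1tg replicates 1 and 2 and control replicate 2 and 2.74 to 3.15 in the others, and all 6 *Eif2s3y* values lay under the background level used below. Arrays of the same label thus differed in sex-linked genes, the controls in both and the SCLtg LMO1tg arrays in *Eif2s3y*. Sex was not a term in the fits.

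Upstream sequence is shown for the members that the RefSeq promoter table holds, because E-boxes are the letters that SCL and its E protein partners are known to recognise. An entry was found for 4 of the 9 members. Each line gives the 250 bases before the transcription start, on the strand of the gene and build GRCm38.p6, with E-boxes (CANNTG, which reads the same on both strands) in capitals.
Cd8a: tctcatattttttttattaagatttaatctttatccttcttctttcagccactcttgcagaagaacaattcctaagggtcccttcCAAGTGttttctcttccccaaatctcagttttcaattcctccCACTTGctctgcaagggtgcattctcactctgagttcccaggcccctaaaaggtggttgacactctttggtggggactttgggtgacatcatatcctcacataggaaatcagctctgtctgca
Cd5: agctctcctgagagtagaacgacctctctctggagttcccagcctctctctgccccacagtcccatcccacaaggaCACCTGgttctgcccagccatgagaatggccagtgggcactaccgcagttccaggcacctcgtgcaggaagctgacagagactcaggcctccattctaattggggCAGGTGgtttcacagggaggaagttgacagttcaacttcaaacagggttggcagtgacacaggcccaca
Bcl6: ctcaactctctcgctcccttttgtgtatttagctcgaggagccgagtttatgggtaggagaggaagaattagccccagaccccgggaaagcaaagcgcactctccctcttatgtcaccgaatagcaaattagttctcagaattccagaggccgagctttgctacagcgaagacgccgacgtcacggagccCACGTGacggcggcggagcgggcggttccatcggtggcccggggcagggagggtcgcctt
Arpp21: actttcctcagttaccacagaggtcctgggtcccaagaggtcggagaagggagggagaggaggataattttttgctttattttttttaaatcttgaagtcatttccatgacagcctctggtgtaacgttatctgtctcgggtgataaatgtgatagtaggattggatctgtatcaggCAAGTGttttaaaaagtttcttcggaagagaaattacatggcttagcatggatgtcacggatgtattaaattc
The sequence for *Cd8a* lies at chr6:71373177-71373426 (+), that for *Cd5* at chr19:10738975-10739224 (-), that for *Bcl6* at chr16:23988853-23989102 (-) and that for *Arpp21* at chr9:112233723-112233972 (-). The first of 2 annotated starts is shown for *Bcl6* and the first of 9 for *Arpp21*. *Cd8a* and *Cd5* hold 2 E-boxes each, while *Bcl6* and *Arpp21* hold 1 each at the starts shown. The second *Bcl6* start holds 0, and the 9 *Arpp21* starts hold between 1 and 5. An E-box was present in 66.2% of all 32851 promoter entries of this length, with a mean of 1.16 per entry, so holding one does not set these genes apart. A match is a description of letters and not of binding.

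Several members are neighbours in the genome. By order of protein-coding genes in RefSeq, *Cd8a* lies next to *Cd8b1*, *Cd5* next to *Cd6*, *Cd4* next to *Lag3*, and *Cd28* next to *Ctla4*. *Arpp21* holds the microRNA gene *Mir128-2* within it, on the same strand. Its mature product is shown with the seed, bases 2 to 8, in capitals, since a transcript of the host gene can also be the source of this microRNA. The arrays did not measure it.
mmu-miR-128-3p: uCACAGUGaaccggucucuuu
It lies at chr9:112118644-112118664 (-) in GRCm38.p6.

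Only 2 of the 9 genes lay above background in these *Cd3e*-deficient thymi, *Cd1d1* and *Arpp21*, and both did so in both groups. The background level was taken for each array as the 95th percentile of 54 probe sets of 42 genes of other tissues, such as pancreas, lung and testis, and ran from 6.41 to 6.81 over the 6 arrays. A gene counted as above it when 1 of its probe sets exceeded it on all 3 arrays of a group. That held for 4 probe sets, both of *Cd1d1* and 2 of the 3 of *Arpp21*. *Cd4*, *Cd8a*, *Cd8b1*, *Cd5*, *Cd6*, *Cd28* and *Bcl6* were not above it in either group. With the 90th percentile as the level 3 genes passed. *Cd28* was the third, through the SCLtg LMO1tg arrays only (3 of 3, against 1 of 3 controls). That level was higher in control replicates 2 and 3 (6.39 and 6.31) than in the SCLtg LMO1tg arrays (5.63 to 5.94). With the 40th percentile of all probe sets (5.05 to 5.24) 6 genes passed, and *Cd8a*, *Cd8b1* and *Cd5* still did not. Probe sets differ in how brightly they bind, so a level under background is a limit of the measurement and does not show that a transcript was absent. No array of wild-type or double positive thymocytes was analysed here against which these levels could be set. In these bulk samples fewer cells of a type and less RNA per cell cannot be told apart.

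**Figure D1:**
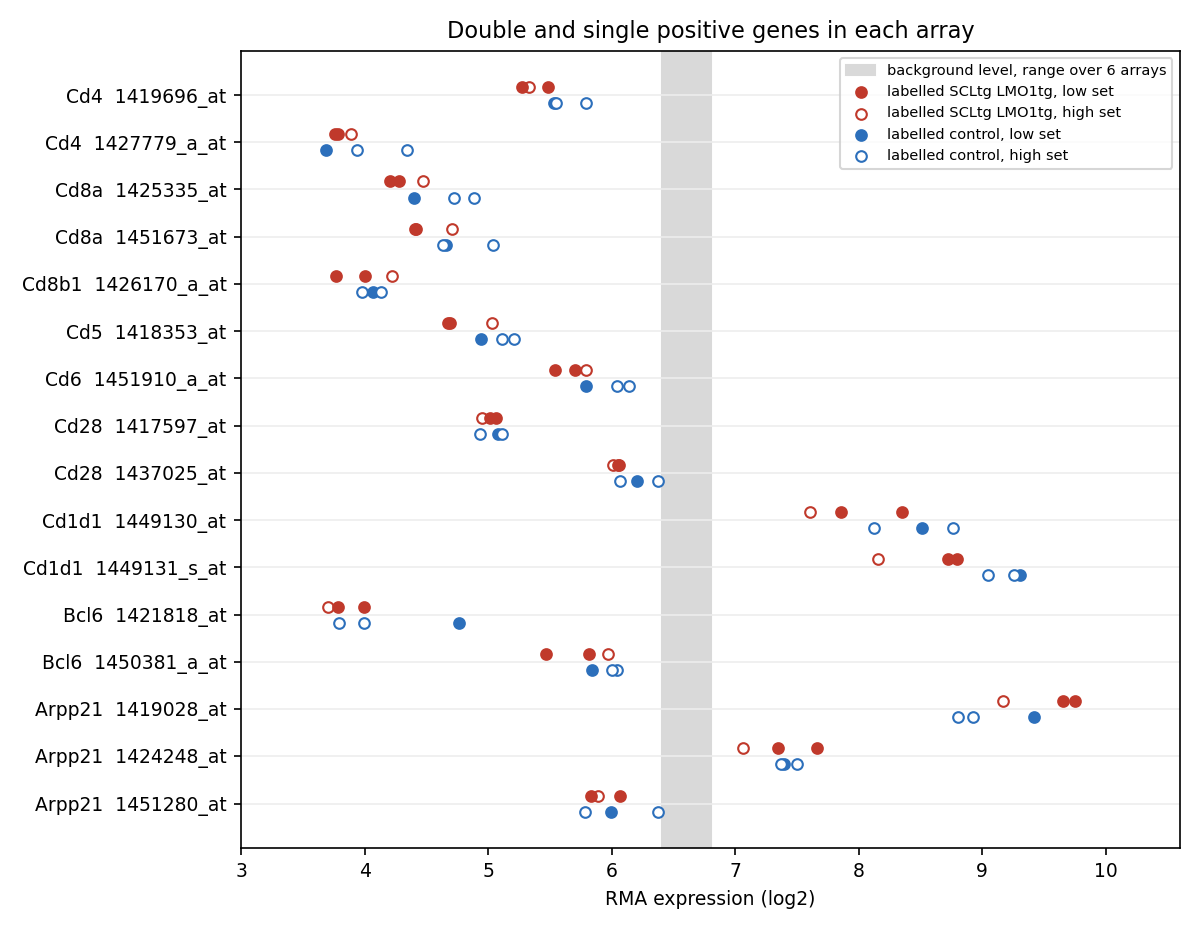
RMA log2 expression (x axis) of the 16 probe sets in each of the 6 arrays, coloured by label, with filled points for the low and open points for the high hybridization set. The grey band spans the background levels of the 6 arrays, 6.41 to 6.81. Both *Cd1d1* probe sets and 2 *Arpp21* probe sets lie to the right of it on every array, and the other 12 do not.

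The coreceptor genes were at low levels in both groups. *Cd4*, the coreceptor for MHC class II, read 5.33, 5.48 and 5.27 in the arrays labelled SCLtg LMO1tg and 5.53, 5.55 and 5.80 in the control arrays at probe set 1419696_at. The groups did not overlap, and every array was below its background level. The log2 difference, SCLtg LMO1tg minus control throughout, was -0.26 ± 0.15 (SE, n = 3 arrays a group) and did not pass limma's test (adjusted p = 0.610). Its 95% interval ran from -0.59 to 0.07. The second *Cd4* probe set, 1427779_a_at, read 3.89, 3.76 and 3.78 against 3.69, 3.93 and 4.35, and these groups overlapped. It was too low to be tested after the filter on low values, which asked for at least 3 of the 6 arrays at or above the 40th percentile of the array.

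*Cd8a* and *Cd8b1*, the chains of the coreceptor for MHC class I, were under that filter at every probe set. *Cd8a* read 4.48, 4.28 and 4.20 against 4.40, 4.73 and 4.88 at 1425335_at. It read 4.71, 4.42 and 4.41 against 4.66, 5.04 and 4.63 at 1451673_at. In both cases 1 of the SCLtg LMO1tg arrays, replicate 1, reached into the range of the controls. *Cd8b1* read 4.22, 4.01 and 3.77 against 4.07, 4.13 and 3.98, so its groups overlapped throughout. In a fit without the filter the *Cd8a* differences were -0.35 ± 0.16 and -0.27 ± 0.16 (SE) and that of *Cd8b1* was -0.06 ± 0.14. None of them passed limma's test (adjusted p = 0.648, 0.699 and 0.905).

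The regulators of T cell receptor signalling were also under background. *Cd5*, an inhibitory receptor whose level on T cells follows the strength of receptor signalling, read 5.04, 4.69 and 4.67 against 4.95, 5.21 and 5.11. SCLtg LMO1tg replicate 1 lay above control replicate 1, and the probe set reached the 40th percentile on 1 array only. *Cd6*, a related scavenger receptor that binds CD166, read 5.79, 5.54 and 5.70 against 5.79, 6.14 and 6.04. The highest SCLtg LMO1tg array overlapped the lowest control. The *Cd6* difference was -0.31 ± 0.15 (SE, n = 3 arrays a group), with a 95% interval from -0.66 to 0.03 and a limma adjusted p = 0.585.

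*Cd28*, the costimulatory receptor for CD80 and CD86, read 6.01, 6.06 and 6.05 against 6.21, 6.37 and 6.07 at 1437025_at. The groups did not overlap, but the highest SCLtg LMO1tg array and the lowest control array were almost level. The difference was -0.18 ± 0.14 (SE), with a limma adjusted p = 0.692, and -0.10 without control replicate 2. The other *Cd28* probe set, 1417597_at, was lower than the filter and read 4.95, 5.06 and 5.01 against 5.08, 4.93 and 5.11, with the groups interleaved.

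*Cd1d1* was above background on every array and had lower values with the label SCLtg LMO1tg. CD1d presents lipids, and on double positive thymocytes it selects natural killer T cells, although other cells of the thymus, among them B cells, dendritic cells and macrophages, carry it too. At 1449131_s_at it read 8.16, 8.80 and 8.73 against 9.30, 9.26 and 9.05, and the groups did not overlap. The means were 8.56 ± 0.35 and 9.20 ± 0.14 (SD, n = 3 arrays each). The difference of -0.64 ± 0.19 (SE) had a 95% interval from -1.08 to -0.21, and it did not pass limma's test after adjustment over all probe sets (adjusted p = 0.412). Over the alternative settings that adjusted p ranged from 0.0992 to 0.9998.

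At the other *Cd1d1* probe set, 1449130_at, the values were 7.60, 7.86 and 8.35 against 8.51, 8.12 and 8.76. SCLtg LMO1tg replicate 3 lay above control replicate 2. The difference was -0.53 ± 0.23 (SE, 95% interval -1.05 to -0.01), with a limma adjusted p = 0.558. The suffix of the first probe set marks probes that may also match related transcripts, and the near-identical paralog *Cd1d2* has a probe set of its own. *Cd1d2* read 6.65, 6.82 and 6.46 against 6.82, 6.70 and 7.47. How the paralogs share signal cannot be told apart from these values.

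The summed level of B cell markers was also lower with the label SCLtg LMO1tg, while no probe set passed the test. Their summed level (the log2 of the sum of linear values) was 8.65 to 8.78 in the SCLtg LMO1tg arrays and 8.83 to 9.26 in the controls. Of 5 B cell probe sets tested 0 passed, 4 had negative differences and the median was -0.39. *Cd79a*, a chain of the B cell receptor, read 5.77, 5.71 and 5.51 against 6.39, 6.25 and 6.26, with a difference of -0.64 (limma adjusted p = 0.237). *Ms4a1*, which encodes CD20, differed by -0.77 (adjusted p = 0.380), and *Blnk*, an adaptor of that receptor, by -0.39 (adjusted p = 0.567). These 3 passed the filter on low values but lay under background. With the hybridization set as a block in the fit they differed by -0.64, -0.84 and -0.27. The part in them of the shift of low probe sets, given further on, was not tested. *Cd79b* was the 1 of 7 measured B cell genes above background and differed by 0.01 (means 7.23 and 7.22, adjusted p = 0.991), and the defining B cell factors *Pax5* and *Ebf1* were not above it. The summed level of dendritic cell and macrophage markers was 11.04 to 11.55 against 11.11 to 11.68, with 6 of 11 measured genes above background and 0 of 12 probe sets past the test, where the median difference was -0.13. The part of these cells in the *Cd1d1* difference was not tested.

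*Bcl6* was under background on all arrays. It encodes a repressor that is best known from germinal centre B cells and follicular helper T cells. At 1450381_a_at it read 5.97, 5.82 and 5.47 against 5.84, 6.05 and 5.9999, with overlap, and the difference was -0.21 ± 0.17 (SE, limma adjusted p = 0.689). It was -0.07 without SCLtg LMO1tg replicate 3 and -0.32 without SCLtg LMO1tg replicate 1. At 1421818_at, lower than the filter, it read 3.70, 3.78 and 3.99 against 4.76, 3.79 and 3.996. Control replicate 1 stood apart there, and without it the difference went from -0.36 to -0.07.

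*Arpp21* was the member whose brightest probe set had higher values with the label SCLtg LMO1tg, and its 3 probe sets differed in sign. The gene encodes a cyclic AMP-regulated phosphoprotein that binds RNA, known from striatal neurons and from immature thymocytes. At 1419028_at it read 9.17, 9.76 and 9.66 against 9.42, 8.93 and 8.81. SCLtg LMO1tg replicate 1 lay below control replicate 1, so the groups overlapped. The difference was 0.48 ± 0.21 (SE), with a 95% interval from -0.01 to 0.96 and a limma adjusted p = 0.564.

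At 1424248_at, also above background, *Arpp21* read 7.06, 7.35 and 7.66 against 7.40, 7.37 and 7.502. The difference of -0.07 ± 0.17 (SE, limma adjusted p = 0.899) turned to 0.08 without SCLtg LMO1tg replicate 1. At 1451280_at, under background, the values were 5.89, 5.83 and 6.07 against 5.998, 5.79 and 6.37. The difference of -0.13 ± 0.18 (SE, adjusted p = 0.812) turned to 0.03 without control replicate 3. RefSeq lists 9 starts for this gene, and which transcripts each probe set detects was not examined.

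Of the 16 probe sets, 9 (from 6 genes) passed the filter, and each of the 9 lay at or above the 40th percentile on all 6 arrays. At a limma adjusted p under 0.05, 0 of these 9 differed between the groups, beside 0.102% of all 13776 probe sets tested (14, of which 7 were higher and 7 lower). At an unadjusted p under 0.05, 2 were lower, both from *Cd1d1*, beside 2.67% of all tested. *Cd4* 1419696_at, *Cd28* 1437025_at and *Cd1d1* 1449131_s_at were lower with no overlap, 3 of 9, beside 5.82% of all tested. Negative differences of any size were found for 8 of the 9 tested, beside 50.2% of all tested, and for 15 of all 16, beside 59.5% of all probe sets without the filter. The median difference was -0.21 over the 9 tested and -0.27 over the 7 below the filter.

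Low probe sets as a whole lay in the same direction. Of all probe sets below the filter, 74.2% had negative differences, with a median of -0.08. The probe sets of other tissues, used for the background, had negative differences in 48 of 54 cases and a median of -0.10. Some of the 12 member probe sets not above background passed the filter, where 50.2% of all probe sets had negative differences. Past the same filter, however, probe sets of other tissues had negative differences in 18 of 19 cases, with a median of -0.11. The part of the common shift in the differences of these 12 was not tested.

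**Figure D2:**
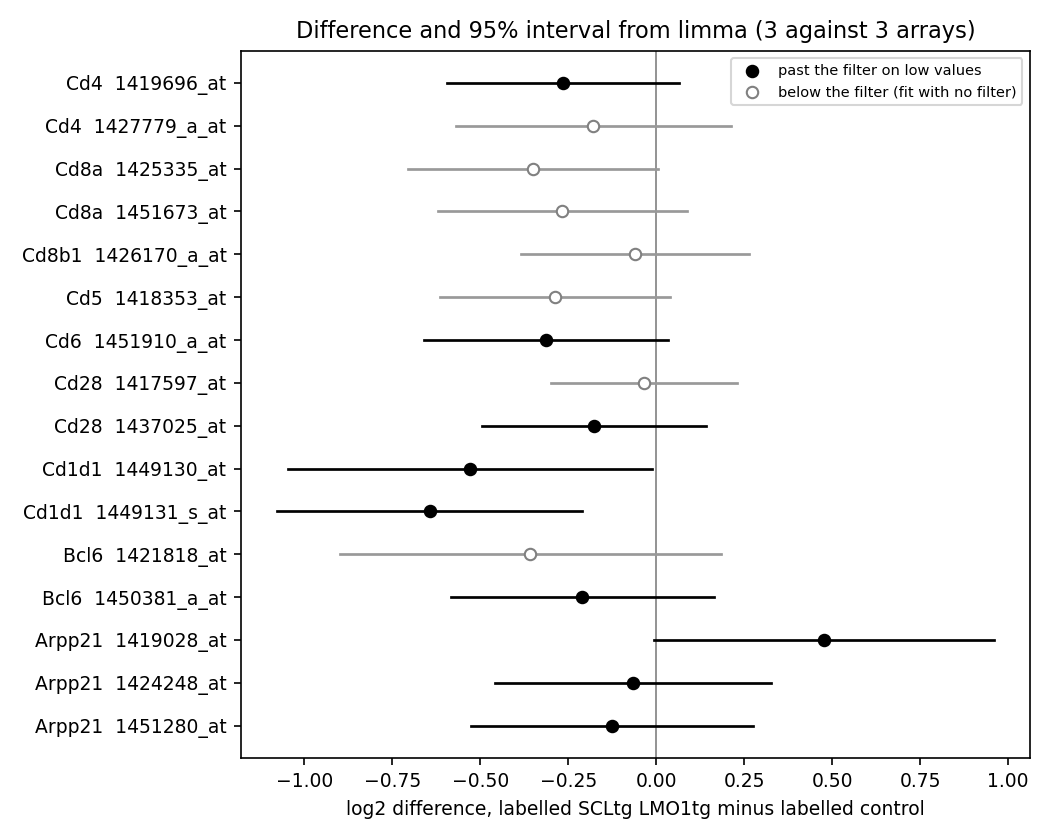
Log2 difference (x axis, labelled SCLtg LMO1tg minus labelled control) of each probe set with its 95% interval from limma, 3 against 3 arrays. Filled points passed the filter on low values, and open points come from the fit without it. The intervals of both *Cd1d1* probe sets lie below 0, and 1 *Arpp21* probe set is the only point above 0.

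The hybridization sets were crossed with the groups, so each difference was also taken within a set and with the set as a block. The main direction of variation (first principal component of the tested probe sets) held 53.9% of the variance. It separated the low set (12.1 to 28.3) from the high set (-34.5 to -7.6), while the groups overlapped on it. Within the low set *Cd1d1* differed by -0.54 at 1449131_s_at and -0.41 at 1449130_at, and within the high set by -0.997 and -0.84. With the block the differences were -0.77 (limma adjusted p = 0.136) and -0.62 (adjusted p = 0.412). Neither *Cd1d1* probe set separated the low set from the high set. *Arpp21* 1419028_at did separate them, with every low-set array above every high-set array (means 9.61 and 8.97), and its difference was 0.28 within the low set, 0.31 within the high set and 0.29 with the block (adjusted p = 0.499).

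Complete separation of the sets was also found for *Cd4* 1427779_a_at, *Cd8a* 1425335_at, *Cd5*, *Cd6* and *Bcl6* 1450381_a_at, here with lower values in the low set. The 54 probe sets of other tissues were all lower in the low set on average, with a median of -0.22. For *Cd6* the differences were -0.17 and -0.30 within the low and the high set, and for *Cd4* 1419696_at -0.16 and -0.34. The differences with the block were -0.23 for *Cd6*, -0.25 for *Cd4* 1419696_at and -0.18 for *Cd28* 1437025_at. They were -0.13 for *Bcl6* 1450381_a_at and -0.12 for *Arpp21* 1451280_at. With the block 0 of the 9 members passed an adjusted p under 0.05, beside 0.145% of all tested. At an unadjusted p under 0.05, 3 did (both of *Cd1d1* and *Arpp21* 1419028_at), beside 9.30% of all tested.

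**Figure D3:**
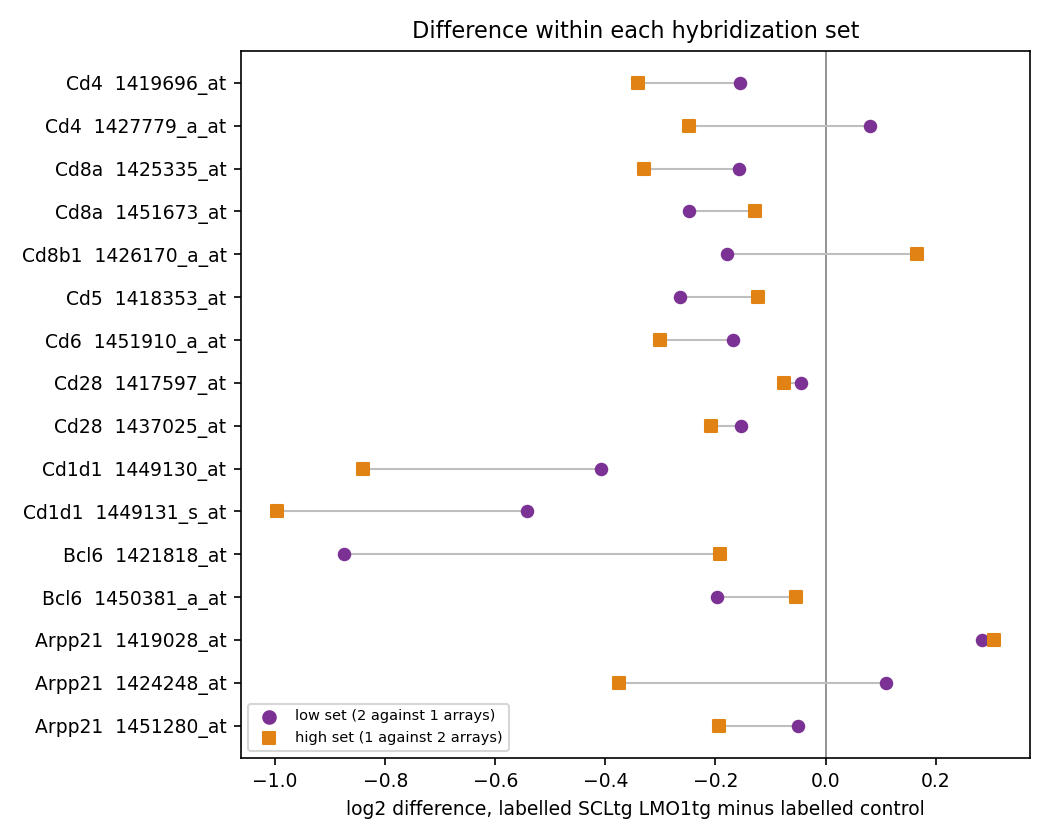
Log2 difference (x axis, labelled SCLtg LMO1tg minus labelled control) of each probe set within the low hybridization set (circles, 2 against 1 arrays) and the high set (squares, 1 against 2 arrays), without error bars because a set holds too few arrays. Both *Cd1d1* probe sets lie below 0 in both sets, *Arpp21* 1419028_at lies near 0.3 in both, and *Cd4* 1427779_a_at, *Cd8b1* and *Arpp21* 1424248_at change sign between them.

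The members did not share a single pattern over the 6 arrays. Here the brightest probe set stands for each gene. *Cd5* and *Cd6*, the adjacent scavenger receptor genes, had a Pearson correlation of 0.91, and *Cd8a* and *Cd5* of 0.90. *Arpp21* ran opposite to both, at -0.95 with *Cd5* and -0.93 with *Cd6*, while *Cd1d1* and *Arpp21* were at -0.21. These values describe 6 arrays that also share the hybridization sets which separate *Cd5*, *Cd6* and *Arpp21*. The mean profile of *Cd1d1* and *Arpp21*, the members above background, was most like those of *Atmin* (0.990), *Ccnd3* (0.989), *Tmod3* (0.981), *Senp6* (0.978) and *Pip4k2a* (0.977). That mean is not a shared pattern, since *Cd1d1* and *Arpp21* were at -0.21, and it was higher in every low-set array than in every high-set array. The genes named are the highest among all probe sets past the filter over 6 arrays, and no test was made of them.

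Other genes of the double positive stage gave no probe set past the test. Of 18 listed genes 13 had a probe set, 6 were above background, and 0 of 19 probe sets tested passed, with a median difference of 0.06. *Rag1*, which with *Rag2* cuts receptor genes for recombination, read 11.16, 11.26 and 11.71 against 10.66, 10.59 and 9.95, without overlap, and differed by 0.97 ± 0.22 (SE, limma adjusted p = 0.273). *Rag2* differed by 0.82 ± 0.23 (adjusted p = 0.349), also without overlap. Both already act in double negative cells, where the β chain gene is recombined, so their levels do not mark a later stage. *Ccr9*, the receptor for the thymic chemokine CCL25, read 5.68, 5.97 and 5.81 against 7.01, 5.89 and 6.84 and differed by -0.76 ± 0.27 (adjusted p = 0.467).

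Genes of single positive maturation likewise gave 0 of 17 probe sets past the test, with a median of -0.13, and 3 of 14 measured genes were above background. *Il7r*, the interleukin 7 receptor chain that double negative cells also use, read 9.14, 9.77 and 9.72 against 8.76, 8.34 and 7.95. Its difference of 1.20 ± 0.24 (SE) at this probe set, 1448575_at, had a limma adjusted p = 0.191, and 0.0585 with the hybridization set as a block. Another *Il7r* probe set tested, 1448576_at, differed by 0.56 with overlap (limma adjusted p = 0.576, and 0.672 with the block). *Klf2*, which governs exit from the thymus, differed by -0.53 (adjusted p = 0.455) and *Cd27* by -0.35 (adjusted p = 0.618).

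The double negative stage was the best represented of the stages, with 9 of 14 measured genes above background, and 1 of its 18 probe sets tested passed. That was *Ptcra*, which encodes pre-Tα. By label it was higher, with 10.35, 10.32 and 10.39 against 9.36, 8.96 and 8.90, a difference of 1.28 ± 0.16 (SE, limma adjusted p = 0.0230). It no longer passed when SCLtg LMO1tg replicate 2, SCLtg LMO1tg replicate 3, control replicate 2 or control replicate 3 was left out. *Lyl1*, a relative of SCL, read 6.29, 5.75 and 5.92 against 7.40, 7.19 and 7.04 and did not pass (-1.22 ± 0.18, adjusted p = 0.0589). *Hhex* differed by -1.03 ± 0.18 (adjusted p = 0.120). Both *Lyl1* and *Hhex* count as above background through the control arrays only. The median of this list was near 0.

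Ligands, kinases and other partners of the members gave 0 of 27 probe sets past the test, with a median of -0.09. Of their 20 measured genes 11 were above background. *Fyn*, a kinase of the Src family that acts downstream of receptors and coreceptors, differed by 0.79 ± 0.33 (SE, limma adjusted p = 0.545), with control replicate 3 far below the other arrays at 6.40. *Runx1*, whose product binds the *Cd4* silencer, differed by -0.70 at 1427650_a_at (adjusted p = 0.284), the largest of its 5 probe sets and under background. The 3 *Runx1* probe sets above background differed by -0.18, -0.07 and -0.28. *Hdac3* differed by 0.25 (adjusted p = 0.632).

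**Figure D4:**
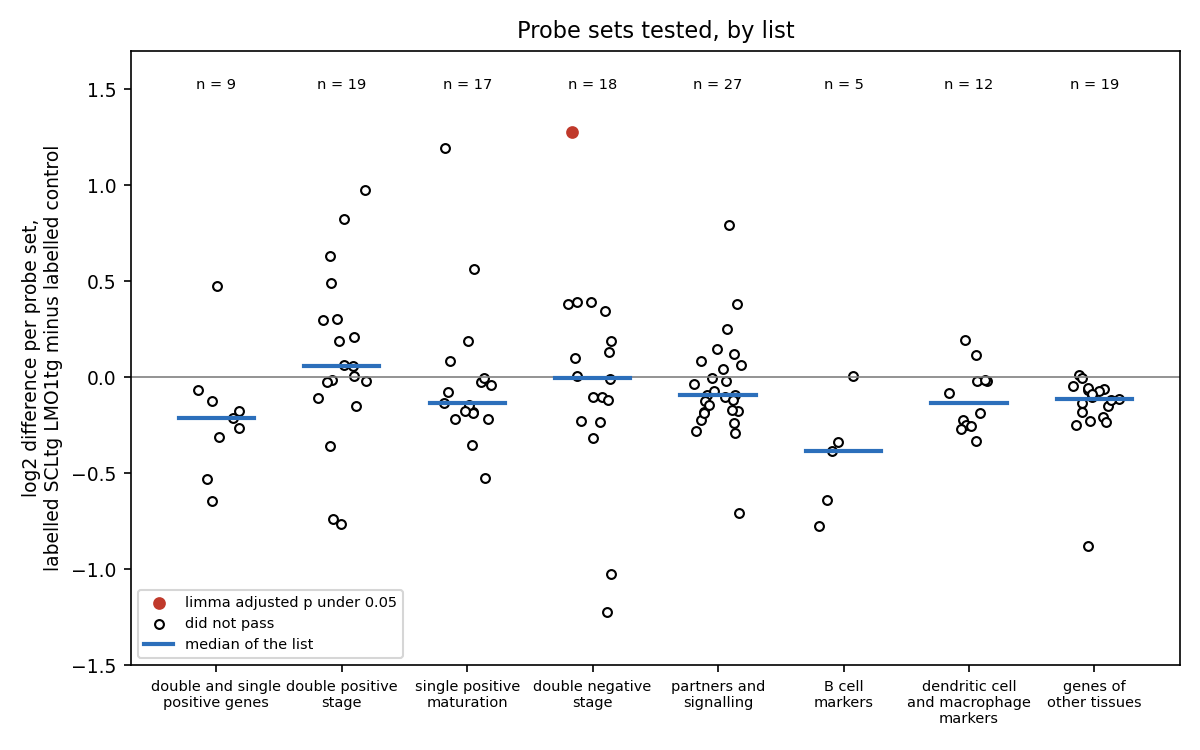
Log2 difference (y axis, labelled SCLtg LMO1tg minus labelled control) of every probe set past the filter in the 9 genes, in 3 lists of thymocyte stages, in their partners, in 2 lists of other thymic cells and in the genes of other tissues. Each point is a probe set, the bars are medians and n counts the probe sets. *Ptcra*, in the double negative list, is the 1 filled point, which marks a limma adjusted p under 0.05.

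Markers of other cells in the thymus were read in the same way, and 0 passed the test. Neutrophil markers had a median difference of 1.13 over 10 probe sets, 6 of them higher without overlap beside 7.36% of all tested, and their summed level was 10.52 to 11.63 against 9.36 to 10.23. Erythroid markers had a median of 0.35 over 6 probe sets and NK and NKT cell markers 0.11 over 7. The medians were 0.07 over 2 for γδ T cells and -0.10 over 9 for thymic stroma. The part of these cells in the levels of the 9 genes was not tested.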

How the data were processed

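RNA was amplified by a small-sample labelling protocol and hybridized to Affymetrix mouse arrays. The authors made the deposited values with RMA of the affy package, and they are log2 expression, 1 per probe set and array, from 2.36 to 14.12. Precision is limited by how few arrays there are. In their own comparison the authors dropped probe sets that MAS5 called absent in each condition and used Rank Products. Neither step was repeated, since the values hold no absent calls and Rank Products permutes over genes.

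Groups came from the sample titles. Of 22690 probe sets, 20380 name 1 gene, 691 several and 1555 none, and 64 are Affymetrix controls, which were left out. Probe sets with at least 3 of 6 arrays at or above the array's 40th percentile were kept (13776) and compared in limma 3.58.1 (R 4.3.3), without covariates, with Benjamini-Hochberg adjustment over all of them. The steps were tested on simulated data. The members, the wider lists and the 9 hybridization control probe sets, split at their largest gap, were chosen with earlier results of these data known. All probe sets of the members are named. In the wider lists the 3 genes with the largest differences are named where a list is described by name, and *Pax5*, *Ebf1* and *Cd79b* were added as defining B cell genes. The 5 genes most like the members were chosen by Pearson correlation. Neighbours, promoters and microRNAs came from RefSeq (GRCm38.p6), of which 20351 probe sets matched by gene number. The array values name no build.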

Additional observations from a re-analysis of the deposited data

How the results depend on the processing

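The number of member probe sets past the test was 0 in each of the 17 alternatives, among them no filter, the 60th percentile filter, repeated quantile normalization, median centring, trend and robust variance, array weights, each array left out, both blocks, 1 value a gene and an adjusted p under 0.1. The number above background went from 2 genes to 6 with the 40th percentile of all probe sets. In the wider lists 1 probe set passed, 2 did at an adjusted p under 0.1, and 0 to 1 with single arrays left out. Among tested probe sets *Arpp21* turned sign with single arrays left out, from -0.218 to 0.0822 at 1424248_at, the highest without SCLtg LMO1tg replicate 1, and from -0.258 to 0.0349 at 1451280_at, the highest without control replicate 3. Of the members too low to test, *Cd8b1* went from -0.06 to 0.05 without SCLtg LMO1tg replicate 3 and to 0.01 with repeated quantile normalization, and *Cd28* 1417597_at from -0.04 to 0.04 with that normalization, to 0.01 with median centring and to 0.00059 without control replicate 3. Over all probe sets the number of calls was 14, between 7 and 20 with single arrays left out, 360 with array weights and 10 with median centring. With the replicate block 8 passed, and 0 of the members. Same-numbered arrays were not shown to be pairs (residual correlations -0.63, 0.05 and -0.38). The smallest exact two-sided p that 3 against 3 arrays allow is 0.1.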
